A study of Mus musculus with 24 samples.

Results

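The genes described here are 9 of the 54429 in the deposited expression tables, chosen by symbol: the TGF-beta ligands Tgfb1, Tgfb2 and Tgfb3, the receptors Tgfbr1 and Tgfbr2 with the co-receptor Eng (endoglin), the signal carriers Smad3 and Smad7, and Lrrc32, which encodes GARP. Lrrc32 was put on the list for its measured response to IL-4, so its values, which include the M2 and M0 levels that chose it, are a description and carry no test. RNA was measured in macrophages grown from the bone marrow of C57BL/6N mice, in 4 groups of 6 libraries. These were MK2 KO M2, MK2 KO M0, MK2 WT M2 and MK2 WT M0, where MK2 is the kinase MAPKAP kinase-2 (gene Mapkapk2), M2 cells had murine IL-4 at 10 ng/ml for 24 h, and M0 cells had none. All 4 groups shared growth in murine M-CSF at 10 ng/ml and replating on day 7. The labels do not say which part of Mapkapk2 was deleted, whether replicates came from separate animals, or whether animals were pooled. Each library was taken as a separate unit, and the p-values refer to spread among libraries, which may be technical. Each culture number in the labels is shared by an M0 and an M2 library of a genotype, and what it marks is not stated.

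TGF-beta is secreted as a latent complex, in which the ligand is held by its own propeptide and tethered to an anchor. GARP is such an anchor on regulatory T cells, platelets and endothelium, NRROS is the anchor known from microglia and other myeloid cells, and integrins containing the alpha v chain release the ligand. Free TGF-beta binds the type II receptor (Tgfbr2), which recruits and phosphorylates the type I receptor (Tgfbr1), and this in turn phosphorylates SMAD2 and SMAD3. SMAD7 is an inhibitor induced by the pathway, and endoglin is an accessory receptor that is also found on macrophages.

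Total counts ranged from 7893809 to 13492507 per library. Mapkapk2 had 47.8 to 60.7 CPM (counts scaled to a common library size) in KO M2 and 54.7 to 63.4 CPM in KO M0 libraries, against 113 to 139 CPM in WT M2 and 100.3 to 138 CPM in WT M0 libraries, so every KO library lay below every WT library while the transcript was still counted. All 10 macrophage identity genes on the list were detected in each group, and 8 of the 9 tested genes of alternative activation by IL-4 rose in KO and in WT cells. Over all genes 12.2% were called higher with IL-4 in KO and 8.49% in WT cells. The 16 markers of stromal cells and fibroblasts summed to 11.6 to 26.6 CPM in KO M2 and 13.3 to 33.5 CPM in KO M0, against 143 to 204 CPM in WT M2 and 154 to 245 CPM in WT M0. All 13 of these markers that could be tested were lower in KO cells in both states, with a median log2 fold change of -3.38 in M2 and -3.70 in M0, and Lum was at 0 in KO M0. Over all genes 3.09% were called lower in KO in M2 and 3.42% in M0 cells. Of the 13, 4 in M2 and 3 in M0 passed the count filter with no KO library at its level. In bulk RNA, fewer cells of a type and less RNA per cell cannot be told apart. Library numbers in the labels run in sets: replicates 4 to 6 hold 1 set, replicates 1 to 3 hold another, and 3 libraries that bear replicate number 2 or 3 (KO M2 replicate 2, WT M2 replicate 2, WT M0 replicate 3) are numbered apart.

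Tgfb1 was by far the most abundant of the 9 transcripts, and the receptors came next. Levels of different genes are compared here in the authors' GETMM values, which are scaled for gene length. In GETMM, Tgfb1 ranged from 423 to 555 in KO M2 libraries, 410 to 475 in KO M0, 429 to 594 in WT M2 and 406 to 543 in WT M0. This placed it between the 97.4th and the 98.1st percentile of the 12797 tested genes in every library. Tgfb1 made up 99.9% to 99.97% of the summed GETMM of the 3 ligands in KO M2, 99.8% to 99.96% in KO M0, 99.6% to 99.8% in WT M2 and 99.5% to 99.7% in WT M0.

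Below Tgfb1, the 2 receptors and Eng formed a middle tier. In KO M2 the order of mean GETMM was Tgfbr1 (58.7), Tgfbr2 (52.9) and Eng (41.1), and the ranges of neighbours in that order overlapped. In KO M0 it was Tgfbr1 (81.4), Tgfbr2 (63.2) and Eng (36.3), and in WT M2 and WT M0 Tgfbr2 (64.5 and 73.8) stood just above Tgfbr1 (57.0 and 70.8), with Eng at 33.3 and 29.6. The ranges of the 2 receptors overlapped in all 4 groups, so their order within a group is not resolved. Eng overlapped with a receptor in KO M2 only.

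The lowest tier held the SMADs, GARP and the rare ligands. Smad3 had a mean GETMM of 4.82 in KO M2, 9.47 in KO M0, 5.42 in WT M2 and 9.19 in WT M0. Lrrc32 stood at 6.73 in KO M2, 0.976 in KO M0, 3.49 in WT M2 and 1.12 in WT M0. It ranked above Smad3 in KO M2, where their ranges overlapped, and below it in the other groups, where they did not. By CPM per kb of exon in place of GETMM it also ranked above Smad3 in WT M2, and Tgfbr1 ranked above Tgfbr2 in both WT groups. Smad7 lay between 0.854 and 1.00 in all 4 group means. Tgfb2 and Tgfb3 were last in both KO groups, at 0.101 and 0.150 in M2 and 0.161 and 0.175 in M0. In WT M0 cells Lrrc32, Tgfb3, Smad7 and Tgfb2 lay between 0.841 and 1.12, with overlapping ranges from each to the next.

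**Figure D1:**
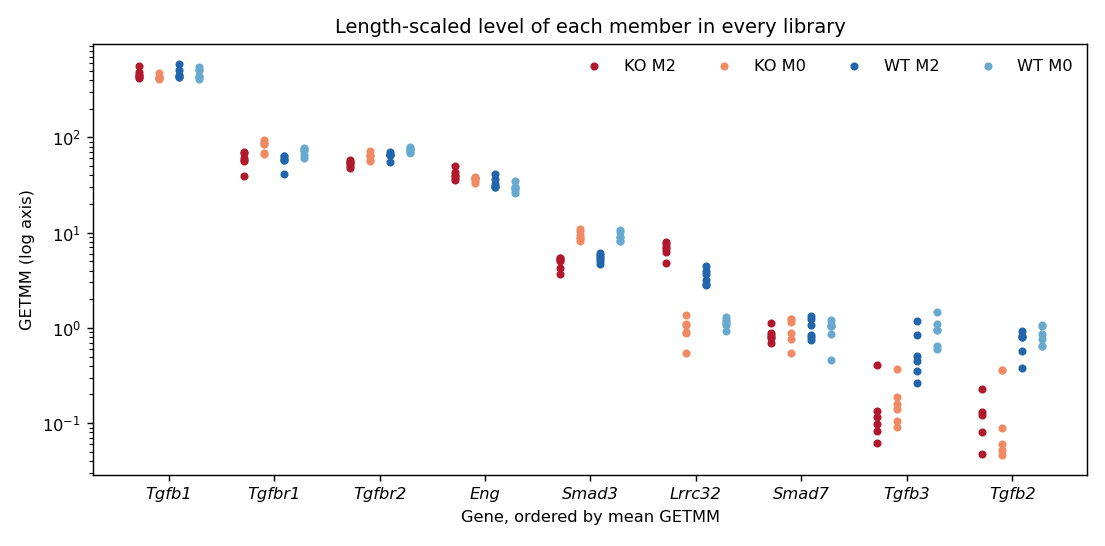
Length-scaled level (GETMM, log axis) of each of the 9 genes, ordered by mean, with 1 point per library and the groups KO M2, KO M0, WT M2 and WT M0 from left to right within a gene. Tgfb1 stands at 406 to 594 in every library, and Tgfb2 is listed at 0 in KO M2 replicate 5, which a log axis cannot draw.

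Neither IL-4 nor the genotype moved Tgfb1 past the threshold in any comparison. Tgfb1 (chromosome 7, 25687002 to 25705077 on GRCm38, plus strand) had a lowest, median and highest level of 378, 401 and 494 CPM in KO M2, 359, 374 and 416 CPM in KO M0, 381, 397 and 525 CPM in WT M2, and 361, 419 and 489.8 CPM in WT M0. All 4 groups overlapped. With IL-4 the log2 fold change was 0.13 in KO cells (95% interval -0.05 to 0.30, adjusted p = 0.32) and 0.01 in WT cells (95% interval -0.17 to 0.18, adjusted p = 0.977). These and all later adjusted p-values come from edgeR's quasi-likelihood test, adjusted by Benjamini-Hochberg over all genes. Between genotypes it was -0.15 without IL-4 (95% interval -0.33 to 0.02, adjusted p = 0.407) and -0.03 with IL-4 (95% interval -0.21 to 0.14, adjusted p = 0.962).

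The other 2 ligands were lower in KO cells. Tgfb2 (chromosome 1, 186622792 to 186705989, minus strand) had a lowest, median and highest level of 0, 0.199 and 0.446 CPM in KO M2, against 0.747, 1.58 and 1.83 CPM in WT M2. In M0 cells these values were 0.0903, 0.145 and 0.700 CPM in KO, against 1.25, 1.64 and 2.13 CPM in WT. No KO library reached the lowest WT library of its state. The values rest on few reads: 11 counts over the 6 KO M2 libraries against 85 in WT M2, and 18 in KO M0 against 94 in WT M0. KO M2 replicate 5 had no Tgfb2 count, which allows a level of up to 0.336 CPM at a floor of 3 counts. The fitted log2 fold change of KO over WT was -2.79 in M2 (SE 0.46) and -2.39 in M0 (SE 0.42).

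Tgfb3 (chromosome 12, 86056745 to 86079041, minus strand) followed the same pattern with more scatter. It had 0.120, 0.206 and 0.781 CPM as lowest, median and highest in KO M2, against 0.508, 0.921 and 2.25 CPM in WT M2, and these ranges overlapped through KO M2 replicate 1. In M0 cells it had 0.170, 0.287 and 0.696 CPM in KO, against 1.18, 1.82 and 2.85 CPM in WT, with no overlap. Summed counts were 16 in KO M2 against 70 in WT M2, and 19 in KO M0 against 106 in WT M0. The fitted log2 fold change of KO over WT was -1.99 in M2 (SE 0.44) and -2.47 in M0 (SE 0.41). IL-4 changed neither rare ligand past the threshold, with a log2 fold change for Tgfb2 of -0.62 in KO (adjusted p = 0.492) and -0.22 in WT cells (adjusted p = 0.724), and for Tgfb3 of -0.18 in KO (adjusted p = 0.853) and -0.66 in WT cells (adjusted p = 0.218).

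Both genes entered the test only through WT libraries: no KO library reached the count filter's level for Tgfb2 or Tgfb3, while 5 of 6 WT M2 and 6 of 6 WT M0 libraries did for Tgfb2, and 2 and 6 did for Tgfb3. A gene that passes in this way had to differ between the genotypes, so these fold changes are given without a test from that fit. In an edgeR quasi-likelihood fit with no count filter, over 32242 genes, the adjusted p was 5.41e-05 in M2 and 0.000232 in M0 cells for Tgfb2, and 0.00477 and 8.54e-05 for Tgfb3. The size varied with the libraries: in M0 cells the log2 fold change was -1.66 for Tgfb2 and -2.06 for Tgfb3 in replicates 1 to 3 alone, and -3.58 and -2.86 in replicates 4 to 6 alone. Exons of Tgfb2 share 124 bases with the antisense gene Gm29491 and those of Tgfb3 share 420 bases with Gm37804 and Gm48008, and since strand is not stated for the counting, reads there cannot be told apart.

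The stromal markers moved with these ligands. The summed stromal CPM given above was lower in every KO library than in any WT library, and Tgfb2 and Tgfb3 were low in the same libraries. Within the KO groups the library with the highest stromal sum was replicate 1 in both states, at 26.6 CPM in M2 and 33.5 CPM in M0, and these 2 libraries also had the highest Tgfb3 level of their group. The WT groups did not follow one order: WT M2 replicate 5 had the highest stromal sum of its group (203.5 CPM) with the lowest Tgfb2 (0.747 CPM), and WT M0 replicate 5 had the highest of its own (245 CPM) with the highest Tgfb3 (2.85 CPM) and a Tgfb2 level of 1.27 CPM, close to the lowest. Without KO M2 replicate 1 the Tgfb3 difference in M2 cells was -2.55, and without KO M0 replicate 1 that in M0 cells was -2.78. The 3 genes most like Tgfb2 over the 24 libraries by Pearson correlation of log2 CPM were Bgn, Fat1 and Cyp1b1 (r = 0.939, 0.928 and 0.927), and among those most like Tgfb3 were Grem1 and Col5a2 (r = 0.903 and 0.900). After group means were removed these correlations were lower, at 0.661, 0.544 and 0.617 for Tgfb2, and 0.618 and 0.682 for Tgfb3. Bgn and Col5a2, a matrix proteoglycan and a fibrillar collagen chain, are on the stromal marker list. The part of stromal cells in the Tgfb2 and Tgfb3 difference was not tested.

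**Figure D2:**
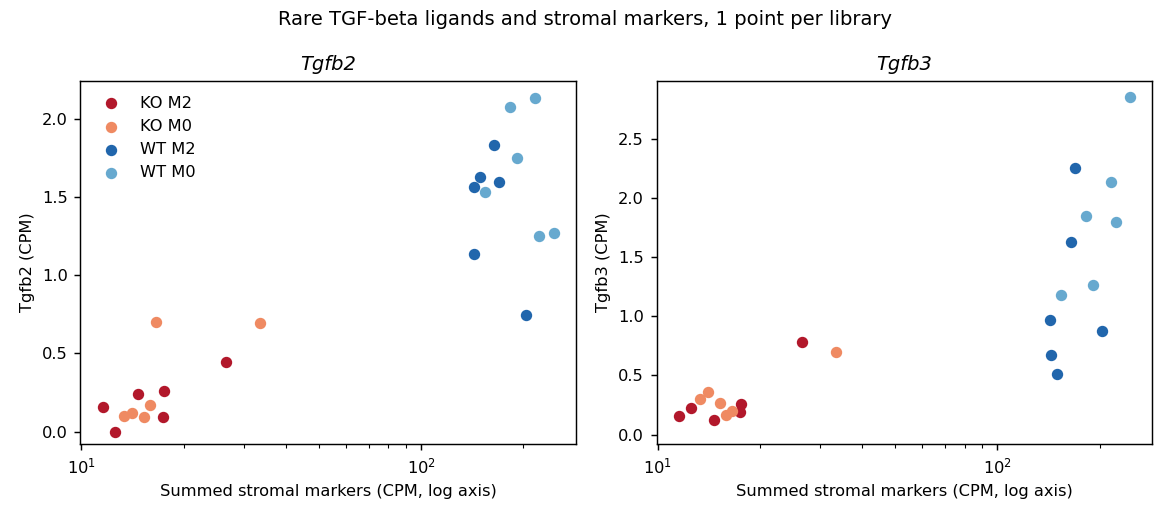
Tgfb2 (left) and Tgfb3 (right) in CPM against the summed CPM of 16 stromal markers (log axis), 1 point per library. The 12 KO libraries lie at stromal sums of 11.6 to 33.5 CPM and the 12 WT libraries at 143 to 245 CPM.

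The proximal promoters of the abundant and of a rare ligand are shown because they differ in composition. The 250 bases before the annotated start are given on the gene's strand from RefSeq on GRCm38.p6, for Tgfb1 at chr7:25686752-25687001 (plus strand) and for Tgfb2 at chr1:186705990-186706239 (minus strand). Capitals mark matches, on either strand, to the GC box GGGCGG, the TATA box TATAAA or the SMAD box CAGAC.
Tgfb1: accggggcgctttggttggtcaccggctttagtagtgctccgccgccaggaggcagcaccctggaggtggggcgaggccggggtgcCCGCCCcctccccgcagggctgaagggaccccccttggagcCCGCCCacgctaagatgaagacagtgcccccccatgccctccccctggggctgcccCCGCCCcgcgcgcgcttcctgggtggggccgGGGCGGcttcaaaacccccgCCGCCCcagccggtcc
Tgfb2: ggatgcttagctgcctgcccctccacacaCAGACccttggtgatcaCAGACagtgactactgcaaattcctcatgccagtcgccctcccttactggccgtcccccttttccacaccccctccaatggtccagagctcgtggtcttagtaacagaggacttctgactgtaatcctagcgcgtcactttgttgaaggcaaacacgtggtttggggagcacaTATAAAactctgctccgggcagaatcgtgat
The Tgfb1 window is 75.2% G or C and holds 5 GC boxes, no TATA box and no SMAD box. The Tgfb2 window is 53.6% G or C, near the median of 52.4% over all promoters, and holds a TATA box from 31 to 26 bases before the start, 2 SMAD boxes and no GC box. Of 32851 mouse promoter windows of this length, 32.7% hold the GC box, 12.4% the TATA box and 42.2% the SMAD box. A match is a run of letters and is not evidence of binding.

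GARP showed the widest difference between states of any of the 9 genes. Lrrc32 (chromosome 7, 98489283 to 98502181, plus strand) had 10.7, 15.5 and 17.9 CPM as lowest, median and highest in KO M2, against 1.21, 2.19 and 3.13 CPM in KO M0. In WT cells it had 6.40, 7.74 and 10.03 CPM in M2, against 2.14, 2.57 and 2.95 CPM in M0. Every M2 library stood above every M0 library of either genotype. The fitted difference was 6.93-fold in KO cells (log2 2.79, SE 0.17) and 3.09-fold in WT cells (log2 1.63, SE 0.17), values given without a test because they are what placed the gene on the list.

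Between genotypes, the Lrrc32 level was higher in KO cells given IL-4. The lowest KO M2 library, at 10.7 CPM, lay above the highest WT M2 library, at 10.03 CPM, and the fitted log2 fold change was 0.94 (SE 0.15, 1.92-fold). Without IL-4 the genotypes overlapped and the log2 fold change was -0.22 (SE 0.19). These comparisons rest on the libraries whose levels chose the gene, so they too are given without a test. In M2 cells the difference was 1.17 in replicates 4 to 6 alone and 0.71 in replicates 1 to 3 alone.

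The fitted IL-4 response of Lrrc32 was 2.24-fold larger in KO than in WT cells (log2 difference 1.16, SE 0.24), also a description. No gene passed the test of a difference between responses by edgeR, with 390 genes at an unadjusted p below 0.05, and DESeq2 called 1 gene.

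Markers of other cells that carry GARP are set beside it. The 12 genes of the T, regulatory T and NK cell list summed to 12.5 to 23.3 CPM in KO M2, 23.1 to 33.1 CPM in KO M0, 13.2 to 32.5 CPM in WT M2 and 17.9 to 45.1 CPM in WT M0, a sum not higher in the M2 groups. Most of this sum was Cd4, the 1 gene of the list that could be tested (average log2 CPM 4.57), so it says little about the other genes. Foxp3, the defining factor of regulatory T cells, had 10 to 12 counts in total in each group, and Ctla4 was at 0 in both WT groups. The 10 megakaryocyte and platelet genes summed to 84.7 to 151 CPM in KO M2, 127 to 144 CPM in KO M0, 134 to 183 CPM in WT M2 and 109 to 195 CPM in WT M0. The 12 endothelial genes summed to 183 to 270.0 CPM in KO M2, 91.5 to 108 CPM in KO M0, 131 to 189.6 CPM in WT M2 and 56.6 to 76.6 CPM in WT M0, higher in the M2 groups as Lrrc32 was. Vwf alone averaged 212 CPM in KO M2, 88.3 CPM in KO M0, 136 CPM in WT M2 and 54.6 CPM in WT M0. The sum was thus mostly Vwf and says little about the other endothelial genes. Of this list 4 genes passed the count filter, Vwf, Flt1, Pecam1 and Kdr, and 3 were called higher with IL-4 in each genotype, Flt1 through M2 libraries alone. Over all genes 12.2% were called higher in KO and 8.49% in WT cells. Flt1, a receptor for VEGF that monocytes also carry, averaged 8.49 CPM in KO M2 and 0.517 CPM in KO M0, and 3.73 CPM in WT M2 and 0.521 CPM in WT M0, with no M0 library at the count filter's level. Pecam1 rose by 0.79 on the log2 scale in KO (adjusted p = 0.00567) and by 0.67 in WT cells (adjusted p = 0.0219), and Kdr fell in KO cells (-0.89, adjusted p = 0.00181). Among the genes that could not be tested, Cldn5 was at 0 in both M0 groups, and the junction gene Cdh5 was at most 0.471 CPM in KO M2, against at most 0.722 CPM in KO M0, and at most 1.22 CPM in WT M2, against at most 2.76 CPM in WT M0. The part of endothelial cells in the Lrrc32 level was not tested beyond these values.

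Of the other genes that hold or release latent TGF-beta, the integrin beta chains Itgb8 and Itgb3 rose with IL-4, Itgb1 and Itgb5 did not pass the threshold, Itgb6 had no counts, and the anchor NRROS did not change past the threshold. Itgav, which encodes alpha v, did not pass with IL-4 in KO (-0.21, adjusted p = 0.126) or WT cells (-0.11, adjusted p = 0.49). Itgb8, which pairs with alpha v to release TGF-beta, had 3.21 to 5.24 CPM in KO M2, against 0.1 to 1.10 CPM in KO M0, and 1.94 to 7.25 CPM in WT M2, against 0.126 to 1.5 CPM in WT M0. Its log2 fold change with IL-4 was 2.68 in KO (SE 0.39, adjusted p = 8.76e-06) and 2.50 in WT cells (SE 0.37, adjusted p = 2.33e-05). Itgb3, another partner of alpha v that osteoclasts also carry, had 204 to 374 CPM in KO M2, against 77.3 to 94.8 CPM in KO M0, and 174 to 216 CPM in WT M2, against 50.7 to 92.5 CPM in WT M0. On the log2 scale it rose by 1.77 in KO (adjusted p = 3.27e-09) and by 1.41 in WT cells (adjusted p = 2.42e-07), and was higher in KO than in WT M2 cells (0.56, adjusted p = 0.0258). In M2 replicates 1 to 3 it had 295.5 to 374 CPM in KO and 184 to 216 CPM in WT. In M2 replicates 4 to 6 it had 204 to 265 CPM in KO and 174 to 212 CPM in WT, with overlap. Beside it, 5 of the 7 tested osteoclast markers were called higher with IL-4 in each genotype, Ocstamp through M2 libraries alone. Over all genes 12.2% were called higher in KO and 8.49% in WT cells.

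Nrros was the more abundant anchor by length-scaled level. Its mean GETMM was 143 in KO M2, 142 in KO M0, 164 in WT M2 and 149 in WT M0, against 6.73, 0.976, 3.49 and 1.12 for Lrrc32 in the same groups. With IL-4 its log2 fold change was 0.03 in KO (adjusted p = 0.896) and 0.12 in WT cells (adjusted p = 0.539). Between genotypes it was -0.19 in M2 (adjusted p = 0.603) and -0.10 in M0 cells (adjusted p = 0.793).

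**Figure D3:**
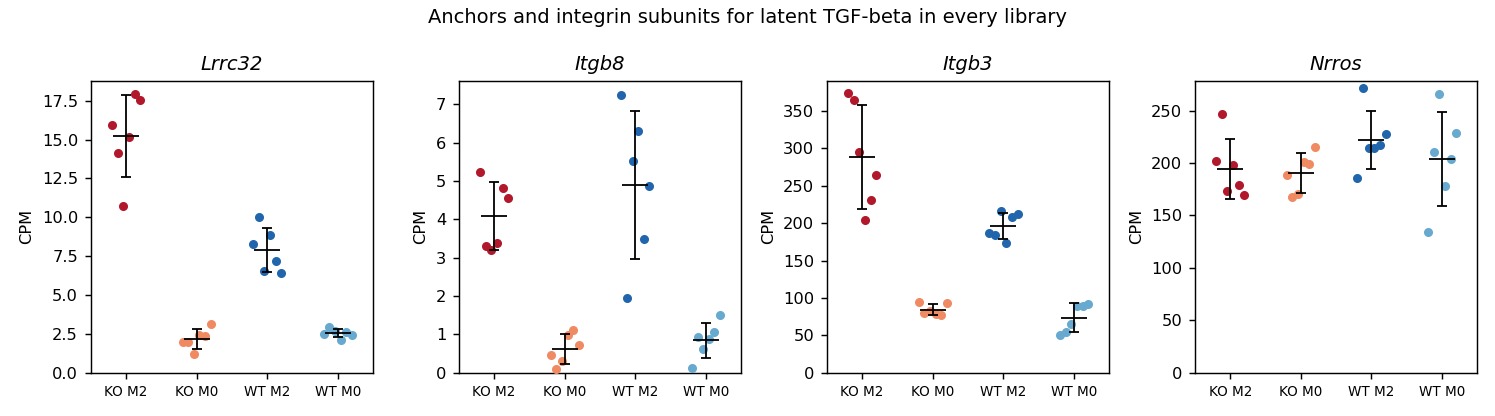
CPM of the anchors Lrrc32 (GARP) and Nrros and of the integrin chains Itgb8 and Itgb3, 1 point per library, with the mean and SD of the 6 libraries of each group. Lrrc32, Itgb8 and Itgb3 are higher in M2 than in M0 libraries, and Nrros lies between 134 and 271 CPM throughout.

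The type II receptor was slightly lower with IL-4 and slightly lower in KO cells. Tgfbr2 (chromosome 9, 116084293 to 116175360, minus strand) had 135, 154 and 166 CPM as lowest, median and highest in KO M2, against 160.0, 179 and 201 CPM in KO M0. In WT cells it had 156, 186 and 198 CPM in M2, against 192, 214 and 228 CPM in M0. KO M2 was thus the lowest group and WT M0 the highest, and each group overlapped with its neighbours. With IL-4 the log2 fold change was -0.24 in KO (SE 0.07, adjusted p = 0.00931) and -0.20 in WT cells (SE 0.07, adjusted p = 0.038). For KO over WT it was -0.28 with IL-4 (SE 0.07, adjusted p = 0.0102) and -0.24 without (SE 0.07, adjusted p = 0.0318), a ratio of 0.823 and 0.845.

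Some of these calls rested on single libraries. The fall with IL-4 in WT cells lost its call without any 1 of WT M2 replicates 2, 3 or 6 or of WT M0 replicates 1, 2, 4 or 6 (adjusted p up to 0.111), and the genotype difference in M0 cells without any 1 of KO M0 replicates 1 to 4 or of WT M0 replicates 1, 2, 4 or 6 (adjusted p up to 0.106). Neither passed in replicates 1 to 3 alone (adjusted p = 0.274 and 0.148) or in replicates 4 to 6 alone (adjusted p = 0.0666 and 0.105). In replicates 1 to 3 alone the fall with IL-4 in KO cells (adjusted p = 0.212) and the genotype difference in M2 cells (adjusted p = 0.218) did not pass, and in replicates 4 to 6 alone both did (adjusted p = 0.0022 and 0.0072).

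The type I receptor fell with IL-4 in KO cells. Tgfbr1 (chromosome 4, 47353222 to 47414931, plus strand) had 109, 163 and 198 CPM in KO M2, against 181, 236 and 260.3 CPM in KO M0. In WT cells it had 113, 163 and 177 CPM in M2, against 165, 204 and 217 CPM in M0. The log2 fold change was -0.46 in KO (SE 0.12, adjusted p = 0.00746) and -0.32 in WT cells (SE 0.12, adjusted p = 0.0786). The difference between these responses was -0.14 (95% interval -0.50 to 0.23, adjusted p = 1), so a call in KO alone does not show unequal responses. In KO cells it passed in replicates 4 to 6 alone (-0.43, adjusted p = 0.000138) but not in replicates 1 to 3 alone (-0.51, adjusted p = 0.0933). Leaving out KO M2 replicate 2 or WT M0 replicate 3 brought the WT change past the threshold (adjusted p down to 0.0338). Between genotypes Tgfbr1 did not pass in M2 (0.05, adjusted p = 0.964) or M0 cells (0.18, adjusted p = 0.532).

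Eng, the accessory receptor, was higher in KO cells. Eng (chromosome 2, 32646595 to 32682669, plus strand) had 56.0, 62.4 and 78.6 CPM in KO M2, against 46.6, 48.5 and 62.9 CPM in WT M2. In M0 cells it had 50.2, 56.2 and 60.4 CPM in KO, against 40.7, 46.1 and 52.4 CPM in WT. The log2 fold change of KO over WT was 0.31 in M2 (SE 0.08, adjusted p = 0.0302) and 0.27 in M0 cells (SE 0.08, adjusted p = 0.0676), so only the first passed. It lost its call without any 1 of KO M2 replicates 1 or 2 or of WT M2 replicates 1, 4, 5 or 6 (adjusted p up to 0.0991), and the M0 difference gained one without KO M2 replicate 2, WT M2 replicate 2 or WT M0 replicate 3 (adjusted p down to 0.0331). In replicates 1 to 3 alone neither passed (0.26, adjusted p = 0.51, and 0.21, adjusted p = 0.516), and in replicates 4 to 6 alone both did (0.36, adjusted p = 0.0034, and 0.37, adjusted p = 0.00347). IL-4 did not move Eng past the threshold in KO (0.20, adjusted p = 0.0918) or WT cells (0.16, adjusted p = 0.208).

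The endothelial sum given above, which was mostly Vwf, was also higher in KO than in WT cells of each state. Vwf was higher by a log2 fold change of 0.64 in M2 (adjusted p = 8.79e-05) and of 0.69 in M0 cells (adjusted p = 3.88e-05). Flt1 was higher in KO M2 than in WT M2 cells (1.18, adjusted p = 0.00376) and did not pass in M0 cells (-0.0033, adjusted p = 0.998). Kdr and Pecam1 did not pass in either state, and Cdh5 was lower in mean level in KO than in WT, at 0.235 against 0.674 CPM in M2 and 0.440 against 1.34 CPM in M0. The part of endothelial cells in the Eng difference was not tested. Exons of Eng share 61 bases with Fpgs on the other strand, where reads cannot be told apart.

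Tgfb1, Tgfbr1 and Eng also varied with the library. Over the 24 libraries the deviations of Tgfb1 and Tgfbr1 from their group means ran against each other (r = -0.686, a description over libraries that share depth and preparation). KO M2 replicate 2 and WT M2 replicate 2, both numbered apart, had the highest Tgfb1 (494 and 525 CPM), the lowest Tgfbr1 (109 and 113 CPM) and the highest Eng (78.6 and 62.9 CPM) of their groups. Without the 3 libraries numbered apart, the Tgfbr1 change with IL-4 was -0.36 in KO (adjusted p = 0.00261) and -0.29 in WT cells (adjusted p = 0.0301), and the genotype difference of Eng was 0.30 in M2 (adjusted p = 0.0046) and 0.31 in M0 cells (adjusted p = 0.0023).

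Smad3 had the smallest adjusted p of the tested members with IL-4, and it fell in both genotypes. Smad3 (chromosome 9, 63646767 to 63757994, minus strand) had 6.37, 8.68 and 9.27 CPM as lowest, median and highest in KO M2, against 14.1, 15.4 and 18.4 CPM in KO M0. In WT cells it had 7.97, 9.26 and 10.4 CPM in M2, against 13.9, 15.3 and 18.6 CPM in M0. All 12 M2 libraries lay below all 12 M0 libraries. The log2 fold change with IL-4 was -0.95 in KO (SE 0.10, a ratio of 0.516, adjusted p = 6.57e-08) and -0.76 in WT cells (SE 0.10, a ratio of 0.589, adjusted p = 3.78e-06). It held in replicates 1 to 3 alone (-0.98 and -0.82) and in replicates 4 to 6 alone (-0.95 and -0.68). The genotypes did not differ past the threshold with IL-4 (-0.17, 95% interval -0.38 to 0.05, adjusted p = 0.58) or without it (0.02, 95% interval -0.18 to 0.22, adjusted p = 0.949).

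The promoters of the genes called lower with IL-4 in both genotypes, Smad3 and Tgfbr2, are shown to set their letters beside that shared direction. They come from RefSeq on GRCm38.p6, at chr9:63757995-63758244 and chr9:116175364-116175613, both on the minus strand, with capitals as above.
Smad3: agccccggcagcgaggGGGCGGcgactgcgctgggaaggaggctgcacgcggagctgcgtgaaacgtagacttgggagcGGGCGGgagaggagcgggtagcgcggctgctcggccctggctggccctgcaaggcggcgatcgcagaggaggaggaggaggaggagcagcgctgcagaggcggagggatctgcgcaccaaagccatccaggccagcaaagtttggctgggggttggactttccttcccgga
Tgfbr2: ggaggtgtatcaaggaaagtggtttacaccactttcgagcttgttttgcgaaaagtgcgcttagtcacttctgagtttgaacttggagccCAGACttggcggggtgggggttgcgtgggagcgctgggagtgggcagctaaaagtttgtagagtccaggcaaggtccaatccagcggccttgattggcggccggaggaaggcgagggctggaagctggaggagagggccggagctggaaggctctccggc
The Smad3 window holds 2 GC boxes and is 69.2% G or C. The Tgfbr2 window holds 1 SMAD box and no GC box and is 58.4% G or C. Neither holds the half-sites TTC and GAA set 4 bases apart, the spacing STAT6 prefers, which 5.85% of all windows hold on either strand, nor the AP-1 site TGANTCA, which 6.75% hold. The same is true of the Tgfb1 and Tgfb2 windows. Of the 9 genes 6 had an entry in the promoter table used, and Lrrc32, Tgfb3 and Smad7, which had none, are named only.

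Smad7, the inhibitory SMAD, did not move past the threshold in any comparison. Smad7 (chromosome 18, 75367529 to 75395935, plus strand) had 1.65, 2.01 and 2.77 CPM as lowest, median and highest in KO M2, 1.3, 2.42 and 3.01 CPM in KO M0, 1.83, 2.29 and 3.25 CPM in WT M2, and 1.13, 2.56 and 2.89 CPM in WT M0. At 117 to 143 counts per group its intervals are wide: with IL-4 the log2 fold change was -0.17 in KO (95% interval -0.65 to 0.30, adjusted p = 0.663) and 0.06 in WT cells (95% interval -0.41 to 0.52, adjusted p = 0.902). For KO over WT it was -0.23 in M2 (95% interval -0.70 to 0.24, adjusted p = 0.814) and 0.00 in M0 cells (95% interval -0.47 to 0.48, adjusted p = 0.998).

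**Figure D4:**
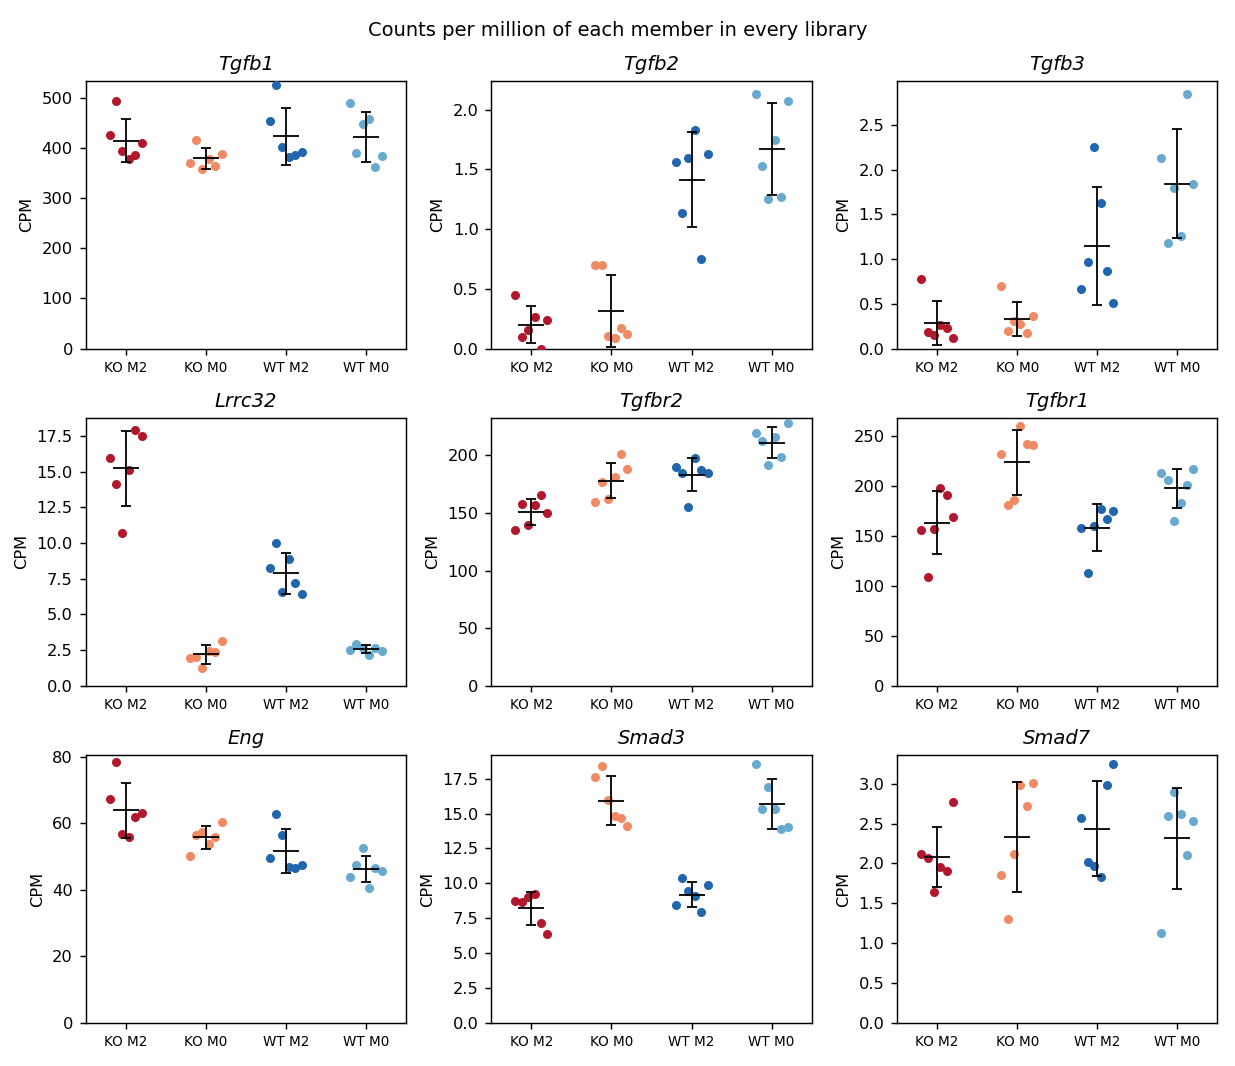
CPM of each of the 9 genes in every library, with the mean and SD of the 6 libraries of each group (KO M2, KO M0, WT M2, WT M0 from left to right). Smad3 is lower in all M2 libraries, Lrrc32 is higher in them, and Tgfb2 and Tgfb3 are lower in KO than in WT.

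Counted over the list, IL-4 lowered 3 of the 8 tested members in KO cells (Smad3, Tgfbr1 and Tgfbr2) and raised none, where 11.4% of all tested genes were lower, 12.2% higher and 23.6% changed. In WT cells it lowered 2 of 8 (Smad3 and Tgfbr2) and raised none, where 7.95% of all genes were lower, 8.49% higher and 16.4% changed. Of the 8, Tgfb2 and Tgfb3 had no KO library at the count filter's level. The median log2 fold change of these 8 genes was -0.21 in KO, against 0.00 over all genes, and -0.21 in WT cells, against -0.02 over all genes. Between genotypes 6 members were tested, since Lrrc32 and the 2 rare ligands are descriptions there. With IL-4, 1 was higher in KO (Eng) and 1 lower (Tgfbr2), where 1.51% of all genes were higher, 3.09% lower and 4.59% called. Without IL-4, Tgfbr2 alone was called, lower in KO, where 3.42% of all genes were lower, 1.1% higher and 4.52% called. None of the 8 tested members was called in the difference of IL-4 responses, where 0% of all genes were called.

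**Figure D5:**
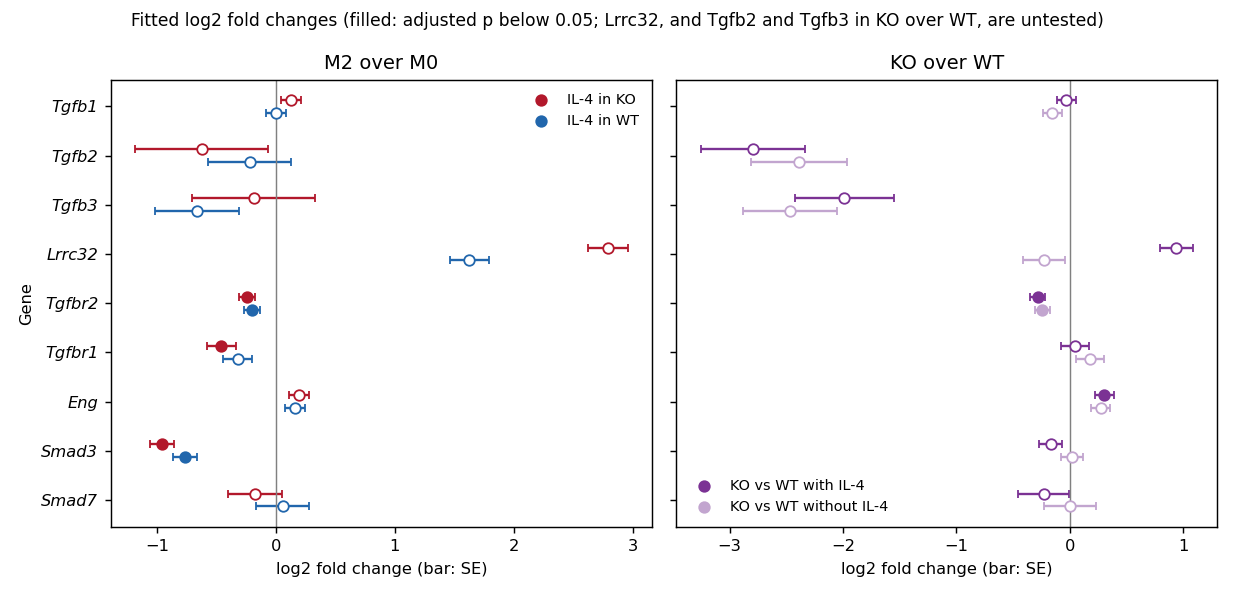
Fitted log2 fold change of each gene with its SE, M2 over M0 in KO and WT cells (left) and KO over WT cells with and without IL-4 (right). Filled points passed an adjusted p of 0.05, and the Lrrc32 points, and those of Tgfb2 and Tgfb3 on the right, are untested.

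A wider set of 91 genes of the pathway held 74 that could be tested. With IL-4, 12 were higher and 10 lower in KO cells, and 9 were higher and 10 lower in WT cells. Between genotypes the calls ran mostly 1 way: 4 were higher and 19 lower in KO with IL-4, and 1 was higher and 21 lower without it. With IL-4 this set had 29.7% called in KO cells, against 23.6% of all genes, and 25.7% in WT cells, against 16.4% of all genes. Between genotypes it had 31.1% called with IL-4, against 4.59% of all genes, and 29.7% without it, against 4.52%. The lists were chosen with earlier results of these data known, so these shares are a description and not a test of the set. Some genes passed the count filter with no library of 1 compared group at its level: 3 of the 22 called with IL-4 in KO cells, 1 of 19 in WT cells, and 4 of 23 and 3 of 22 called between genotypes with and without IL-4. Those that are named below are given without a test. The stromal marker sums differed between genotypes in the same direction, and their part in these counts was not tested.

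Among 10 other ligands of the family 6 passed the count filter. Inhba and Inhbb, which encode the activin beta chains, were lower in KO cells in both states. Inhba was called lower in each state, where 3.09% of all genes were with IL-4 and 3.42% without it, and Inhbb is given without a test. Inhba averaged 1.37 ± 0.311 CPM in KO M2 and 5.70 ± 1.76 CPM in WT M2 (SD, n = 6 each), a log2 fold change of -2.04 (adjusted p = 1.04e-05), and in M0 cells the log2 fold change was -2.93 (adjusted p = 3.84e-08). Inhbb passed the count filter through WT libraries alone, with 4 counts over KO M2 and 63 over WT M2, and 6 over KO M0 and 62 over WT M0. The stromal sums were lower in the same KO libraries, and their part in these differences was not tested. With IL-4 Bmp2 fell in KO cells (-0.92, adjusted p = 0.0058), and Bmp7, which passed the filter there through M2 libraries alone, had 62 counts over KO M2 and 19 over KO M0.

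Of 12 other receptors and co-receptors 11 could be tested. None was called with IL-4 in KO cells, where 23.6% of all genes were, and 2 were called in WT cells, where 16.4% of all genes were. Between genotypes 3 were called with IL-4, against 4.59% of all genes, and 1 without it, against 4.52%. Tgfbr3, the co-receptor betaglycan, averaged 3.85 ± 0.666 CPM in KO M2 and 5.66 ± 1.45 CPM in WT M2 (SD, n = 6 each), lower in KO by a log2 fold change of -0.56 (adjusted p = 0.0392), and it rose with IL-4 in WT cells (0.57, adjusted p = 0.013). Bmpr1a, a type I receptor for bone morphogenetic proteins, was lower in KO M2 cells (-0.50, adjusted p = 0.0455), and Cd109, a TGF-beta co-receptor, was higher (0.41, adjusted p = 0.0473). Nrp1 was lower with IL-4 in WT cells (-0.13, adjusted p = 0.0346) and in KO than in WT M0 cells (-0.15, adjusted p = 0.0429).

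Of 20 genes for latency and activation 18 could be tested, and 6 were lower in KO M2 and 7 in KO M0 cells than in WT cells of the same state, where 3.09% and 3.42% of all genes were lower. The 6 in M2 include Fbn1 and Mmp2, which passed the count filter with no KO M2 library at its level. Ltbp2 and Fbn1, extracellular matrix proteins of the microfibrils that store latent ligand, had the largest differences in M2 cells. Ltbp2 was lower in KO by a log2 fold change of -3.62 (adjusted p = 3.01e-09). Fbn1 averaged 0.836 ± 0.165 CPM in KO M2 and 9.91 ± 1.73 CPM in WT M2 (SD, n = 6 each), and no KO M2 library reached the count filter's level. Thbs1, the matrix protein thrombospondin 1 that can activate latent TGF-beta, ranged from 60.6 to 92.7 CPM in KO M2, against 173 to 901 CPM in WT M2 (-2.96, adjusted p = 1.44e-05), and from 69.7 to 119.7 CPM in KO M0, against 222 to 648 CPM in WT M0 (-2.36, adjusted p = 0.000204). The stromal markers had a median log2 fold change of -3.38 in M2 and -3.70 in M0 cells in the same comparisons, and their part in these differences was not tested. Furin, the protease that cuts the propeptide, rose by 0.25 on the log2 scale with IL-4 in KO cells (adjusted p = 0.0426).

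Of 20 genes for SMAD signalling 17 could be tested. Smurf1, a ubiquitin ligase for SMADs, rose with IL-4 in KO (0.19, adjusted p = 0.012) and WT cells (0.23, adjusted p = 0.00422), and Smad1, which carries signals of bone morphogenetic proteins, fell in KO (-0.35, adjusted p = 0.00624) and WT cells (-0.30, adjusted p = 0.026). In KO cells Fkbp1a, which binds the type I receptor, rose (0.17, adjusted p = 0.022) and Skil, a SMAD co-repressor, fell with IL-4 (-0.37, adjusted p = 0.0164). Zfyve9, the SMAD anchor SARA, was lower in KO than in WT cells with IL-4 (-0.60, adjusted p = 0.00957) and without it (-0.49, adjusted p = 0.0417). Nedd4l, another ubiquitin ligase, was higher in KO M2 cells (0.29, adjusted p = 0.0374).

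Of 19 genes that TGF-beta induces or represses in many cells 16 could be tested. With IL-4 5 were called higher and 4 lower in KO cells, where 12.2% and 11.4% of all genes were, and 4 were called higher and 4 lower in WT cells, where 8.49% and 7.95% of all genes were. On the log2 scale Fn1, fibronectin, rose by 2.89 in KO (adjusted p = 2.02e-07) and by 1.51 in WT cells (adjusted p = 0.000521). The KO rise started from a lower level: without IL-4, Fn1 was lower in KO than in WT cells (-2.27, adjusted p = 1.54e-05). With IL-4 its log2 fold change of KO over WT was -0.89 and did not pass (adjusted p = 0.0728). This value joins sets of replicates that differ. In M2 replicates 1 to 3 Fn1 had 274 to 515 CPM in WT and 85.7 to 142 CPM in KO. In M2 replicates 4 to 6 it had 193 to 225 CPM in WT and 168 to 246 CPM in KO. Bhlhe40, a transcription factor, rose by 2.08 in KO (adjusted p = 3.23e-11) and by 1.61 in WT cells (adjusted p = 3.66e-09). Pmepa1, a feedback inhibitor of SMAD signalling, had 46 counts over KO M2 and 10 over KO M0, and no KO M0 library reached the count filter's level. Id2 was called higher with IL-4 in both genotypes, by 0.52 on the log2 scale in KO and by 0.42 in WT cells (adjusted p = 5.78e-05 in WT). Id3 was lower in KO M2 than in KO M0 cells (-1.47, adjusted p = 0.000561). Ctgf fell with IL-4 in both genotypes (-0.70 in KO, adjusted p = 0.046, and -0.64 in WT, adjusted p = 0.00576), and Acta2 fell in WT cells (-0.61, adjusted p = 0.023).

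Between genotypes, 6 of these 16 targets were lower and 1 higher in KO M2 cells, where 3.09% and 1.51% of all genes were, and 8 were lower and 1 higher in KO M0 cells, where 3.42% and 1.1% were. The 8 in M0 include Pmepa1, which passed the count filter with no KO M0 library at its level. Ctgf, a matrix-associated growth regulator, averaged 1.37 ± 0.591 CPM in KO M2 and 16.7 ± 2.84 CPM in WT M2 (SD, n = 6 each), a log2 fold change of -3.63 (adjusted p = 4.57e-12). The collagen chains Col1a1 and Col1a2 were lower in M2 (-3.56, adjusted p = 4.19e-08, and -3.22, adjusted p = 4.61e-08) and both also stand on the stromal list. Id2 was the gene that was higher in KO, by 0.36 in M2 (adjusted p = 0.000659) and by 0.26 in M0 cells (adjusted p = 0.019). The stromal sums again moved with the genes that were lower, and their part was not tested.

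Of 12 genes that depend on TGF-beta in microglia and other macrophages 8 could be tested. With IL-4 4 were called lower and 1 higher in each genotype, where 11.4% and 12.2% of all genes were in KO cells, and 7.95% and 8.49% in WT cells. Cx3cr1, the fractalkine receptor, had 12 counts over KO M2 and 78 over KO M0, and 10 over WT M2 and 63 over WT M0, and passed the filter through M0 libraries alone. Gpr34 averaged 4.44 ± 1.36 CPM in KO M2 and 10.98 ± 2.11 CPM in KO M0, and 3.74 ± 0.780 CPM in WT M2 and 10.96 ± 3.35 CPM in WT M0 (SD, n = 6 each), with log2 fold changes of -1.29 in KO (adjusted p = 3.16e-05) and -1.55 in WT cells (adjusted p = 6.35e-06). The purinergic receptor P2ry12 fell by 1.03 on the log2 scale in KO (adjusted p = 0.0242) and fell by 0.92 in WT cells (adjusted p = 0.0455). Fcrls was the gene that rose, by 0.53 in KO (adjusted p = 8.48e-05) and by 0.42 in WT cells (adjusted p = 0.0021). Mertk, a receptor for engulfing dead cells, was lower in KO than in WT with IL-4 (-0.49, adjusted p = 0.0274) and without it (-0.55, adjusted p = 0.0122). Olfml3, which passed the filter through WT libraries alone, had 12 counts over KO M2 and 79 over WT M2, and 25 over KO M0 and 78 over WT M0, and the stromal sums were lower in the same KO libraries.

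The genes whose level ran closest to each member over the 24 libraries were found by Pearson correlation of log2 CPM among 10099 genes, as a description across libraries that share groups and preparation. Lrrc32 ran closest to Csf2rb, Ralgds and Ptger2 (r = 0.968, 0.966 and 0.964), and after group means were removed these correlations were 0.570, 0.618 and 0.826. Smad3 ran closest to Arrb2, Fnbp1 and Serinc3 (r = 0.960, 0.951 and 0.950), and Tgfbr2 to C1qa, Crim1 and Glul (r = 0.937, 0.894 and 0.889). Tgfbr1 was closest to Cpeb2, Heca and Actr3 (r = 0.927, 0.915 and 0.913), Tgfb1 to Atp5h, Myl6 and Nucb1 (r = 0.916, 0.908 and 0.891), and Eng to Otulin, Myo1g and Plekho2 (r = 0.908, 0.893 and 0.887). For Tgfb1 the correlations were no lower within groups (0.929, 0.911 and 0.905), where neither genotype nor IL-4 differs. Smad7 had no close neighbour, with Plekhj1, Taz and Snx11 highest (r = 0.665, 0.653 and 0.650).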

How the data were processed

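The authors deposited whole-number expected counts for each gene, and a signal table of GETMM values, scaled by gene length and by library. In the files each GETMM value is the expected count times 1 factor per gene and 1 per library, checked on 13047 genes. The submitters' processing notes list Bowtie2 2.3.4.1, RSEM 1.3.0, CASAVA 2.8.0, edgeR and the mm10 build, without their order. Per the labels' protocols the reads were 40 bp long and single-end. Strand is not stated there.

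The filter filterByExpr (minimum count 10) kept 12797 genes. After TMM scaling and a check on simulated data, edgeR 4.0.16 (R 4.3.3) fitted all 4 groups together and gave robust quasi-likelihood tests of 5 contrasts. P-values were adjusted by Benjamini-Hochberg over every gene tested, with a threshold of 0.05. CPM uses TMM library sizes, except in marker sums, which use total counts. Floors cover counting error only. Chi-square per degree of freedom between libraries of a group was 2.68 or more, so each was counted as its own library.

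All 9 members, up to 3 rises and 3 falls per pathway list, and the 3 genes closest to each member are named, except an item that is not reported here. Members and lists were chosen with earlier results of these data known. Lrrc32 was left out of all tests, and Tgfb2 and Tgfb3 out of the genotype tests after the filter was seen to keep them through WT libraries alone. Coordinates are from GENCODE on GRCm38 and promoters from RefSeq. The alternatives used RLE factors, DESeq2 1.42.0, limma 3.58.1 on GETMM, other filters, 2 groups alone, blocks, sets of library numbers and omitted libraries.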

Additional observations from a re-analysis of the deposited data

Results flagged for a closer look

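In 4 of the 36 groups of 6 values formed by the 9 genes and 4 groups, 1 library stood far from the other 5 by Dixon's gap test, where chance flags about 1 in 20. Tgfb3 was 0.781 CPM (7 counts) in KO M2 replicate 1, against 0.120 to 0.261 CPM (1 or 2 counts) in the other KO M2 libraries. It was 0.696 CPM (6 counts) in KO M0 replicate 1, against 0.170 to 0.361 CPM (2 or 3 counts) in the other KO M0 libraries. Both flags rest on few reads. These 2 libraries also had the highest stromal marker sums of their groups, at 26.6 and 33.5 CPM. Tgfbr2 was 156 CPM in WT M2 replicate 3, against 185 to 198 CPM in the other WT M2 libraries. Tgfbr1 was 113 CPM in WT M2 replicate 2, a library numbered apart, against 158 to 177 CPM in the others.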

How the results depend on the processing

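No tested member changed sign while called under any alternative or omitted library. Among the tested values of the 9 genes, alternatives other than leaving out 1 library brought 16 past the threshold, and 13 that had passed it no longer did. Of the values without a test, the Lrrc32 difference between genotypes without IL-4 changed sign, to 0.14 in replicates 4 to 6 alone (-0.22 in the reported fit). Counts of members and of all genes called moved by over 1.5 times in these cases, and the cause was not tested. With replicates 1 to 3 alone, IL-4 in KO called 1 member (3 in the reported fit) and 1469 genes (3024), IL-4 in WT 1 member (2) and 860 genes (2103), KO against WT without IL-4 0 members (1), and with IL-4 0 members (2) and 309 genes (588). Replicates 4 to 6 alone called 953 genes between genotypes without IL-4 (579), 1059 with IL-4 (588) and 21 in the difference of responses (0). Fitting the library-number sets as a term called 4 members with IL-4 in WT (2), 1044 genes between genotypes without IL-4 and 919 with it. For KO against WT without IL-4, 2 members were called with RLE factors, DESeq2, limma on either GETMM scale, the library-number term, replicates 4 to 6 alone or without the 3 libraries numbered apart, and 0 with no count filter. With IL-4 1 was called in a fit of the 2 groups. IL-4 in WT called 1 member with no count filter and 1 in a fit of the 2 groups. In the difference of responses, DESeq2 called 1 gene and limma on log2(GETMM + 1) called 3 genes, against 0 in the reported fit. By CPM per kb of exon in place of GETMM, 3 of the 9 genes kept their rank in WT M2 and 5 in WT M0.

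Leaving out 1 library at a time gave 3 members in each fit for IL-4 in KO, 1 to 3 for IL-4 in WT, 0 to 2 for KO against WT without IL-4, 1 to 2 with IL-4 and 0 for the difference. The counts of all genes were 2650 to 3242, 1753 to 2273, 435 to 650, 479 to 656 and 0.

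The labels do not say what the replicate number or the culture number marks. Deviations of the M2 and M0 libraries of a genotype that share both numbers correlated between -0.0448 and 0.354, above 0.1 in 8 of 12 pairs. Among the M0 libraries of its genotype, the same-numbered one correlated highest for KO M2 replicates 1, 3, 4 and 5 and for WT M2 replicates 1 and 5. These values do not settle whether the numbers mark pairs, so the reported fit has no pairing and fits with blocks are given beside it. Same-numbered KO and WT libraries share the replicate number only, with correlations between -0.296 and 0.482. With replicate number as a block, 3, 3, 2, 2 and 0 members were called in the 5 contrasts in that order, with Tgfbr1 gained for IL-4 in WT (adjusted p = 0.0131) and Eng for KO against WT without IL-4 (adjusted p = 0.0237). With the culture number that an M0 and an M2 library share as a block, Tgfbr1 was gained for IL-4 in WT (adjusted p = 0.0142), and the difference of responses called 2 genes. That block called 3446 genes for IL-4 in KO and 2622 in WT cells (3024 and 2103 in the reported fit).

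The depth leaves Tgfb2 and Tgfb3 at 11 to 19 counts per KO group, so their folds are imprecise. A fold on log2(GETMM + 1) understates low genes, with Lrrc32 at 1.97 in KO and 1.07 in WT cells.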
